A study of Mus musculus with 10 samples.

Results

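Integrins are cell surface receptors built from 1 alpha and 1 beta chain, and the 8 genes described here, Itgam, Itgal, Itgax, Itga4, Itgav, Itgb1, Itgb2 and Itgb7, encode chains that leukocytes use to stop on vessel walls and to move through tissue. They were given as a list of gene symbols and matched by symbol in the authors' comparison tables. All 8 were found among 29893 genes, and all 8 passed the filter on low counts that left 13384 genes for testing. RNA had been measured in CCR2+ monocytes and in neutrophils, 2 myeloid cell types sorted from lungs of NOD/scid mice, a strain without functional T and B lymphocytes, whose tumours had reached end point. Monocytes from mice with the low metastatic tumour HCl-002 (TN2) gave 3 libraries and those from mice with the highly metastatic tumour HCl-001 (TN1) gave 2, and neutrophils gave 3 TN2 and 2 TN1 libraries. The TN2 libraries are tag_367, tag_706 and tag_1341 and the TN1 libraries tag_191 and tag_482, and values below follow that order. The labels do not say that a tag is 1 mouse, so p-values speak only of how far the libraries spread, which may be technical. Lungs without a tumour were not analysed here.

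An alpha chain leaves the cell's interior only with a beta partner, so the mRNA of both chains bears on which receptors a cell can assemble. The beta 2 chain Itgb2 (CD18) pairs with Itgal to form LFA-1, with Itgam to form Mac-1 and with Itgax to form CD11c/CD18, receptors for ICAM proteins, complement fragments and fibrinogen. Itga4 pairs with Itgb1 to form VLA-4, which binds VCAM-1 and fibronectin, or with Itgb7 to form a receptor for MAdCAM-1, and Itgav joins Itgb1 and several other beta chains to bind RGD-containing matrix proteins such as vitronectin. Talin and kindlin proteins switch integrins into their binding form, and Src family and Syk kinases carry the signal of a bound integrin inward.

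Itgam and Itgax lie next to each other on mouse chromosome 7, and Itgb1 and Itgb7 are the beta chains that were higher in monocytes, so their promoter windows are shown as reference context. The windows run from 250 bases before to 50 bases after the RefSeq start of the gene (RefSeq sequence, GRCm38.p6, given on the strand of the gene, 5′ to 3′). Capitals mark GAGGAAG or its reverse complement CTTCCTC, a core that the myeloid transcription factor PU.1 is known to bind.

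Itgam, chr7:128062390-128062689, plus strand: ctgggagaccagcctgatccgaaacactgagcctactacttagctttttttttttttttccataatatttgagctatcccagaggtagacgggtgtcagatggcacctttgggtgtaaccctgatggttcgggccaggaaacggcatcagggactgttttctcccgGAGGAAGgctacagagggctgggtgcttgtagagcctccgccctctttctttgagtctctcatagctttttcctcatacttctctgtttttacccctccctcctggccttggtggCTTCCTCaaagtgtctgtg

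Itgax, chr7:128129300-128129599, plus strand: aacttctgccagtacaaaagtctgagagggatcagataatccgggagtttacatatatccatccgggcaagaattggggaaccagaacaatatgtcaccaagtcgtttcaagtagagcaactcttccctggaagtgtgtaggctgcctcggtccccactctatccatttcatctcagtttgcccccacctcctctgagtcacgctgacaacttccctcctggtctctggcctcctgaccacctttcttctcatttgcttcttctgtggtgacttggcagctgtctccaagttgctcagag

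Itgb1, chr8:128685404-128685703, plus strand: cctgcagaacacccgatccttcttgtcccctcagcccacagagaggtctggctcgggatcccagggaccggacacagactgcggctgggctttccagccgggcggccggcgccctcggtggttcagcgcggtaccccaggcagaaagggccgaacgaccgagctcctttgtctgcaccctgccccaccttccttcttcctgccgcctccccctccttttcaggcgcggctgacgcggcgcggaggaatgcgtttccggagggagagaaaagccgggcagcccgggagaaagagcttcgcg

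Itgb7, chr15:102231886-102232185, minus strand: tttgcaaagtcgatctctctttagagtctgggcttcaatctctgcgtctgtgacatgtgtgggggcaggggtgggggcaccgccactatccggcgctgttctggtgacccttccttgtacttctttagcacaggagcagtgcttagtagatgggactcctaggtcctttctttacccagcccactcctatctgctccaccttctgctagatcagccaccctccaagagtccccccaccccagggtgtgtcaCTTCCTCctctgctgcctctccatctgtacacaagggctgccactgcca

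The Itgam window holds the core 2 times, with first bases 84 bases upstream of the start and at base 31 of the transcript. Itgb7 holds it 1 time, at base 1 of the transcript, and the Itgax and Itgb1 windows hold no match. A match was held by 3 of the 6 chains with a RefSeq promoter window, the third being Itgav, and 13.6% of all 32851 promoter windows of this length held at least 1 on either strand. A match is a run of letters and not a measured binding site.

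Libraries held 7239218 to 11311370 estimated counts. Of 14 neutrophil markers 14 were lower in monocytes and of 10 monocyte markers 9 were higher (edgeR, adjusted over all genes), with summed TPM (kallisto's level per transcript length and library) of neutrophil markers of 446 to 8572 in monocyte and 132676 to 216850 in neutrophil libraries. Ccr2, the marker of the monocyte sort, was at 128 to 340 TPM in monocytes and 0.905 to 18.4 TPM in neutrophils. Among monocyte libraries TN2 tag_706 stood apart, with summed TPM of 8572 for neutrophil, 1189.8 for endothelial, 800.1 for stromal and 455 for epithelial markers, against 446 to 3338, 3.82 to 75.3, 1.54 to 14.1 and 0.210 to 133 in the other 4. The TN1 tag_482 libraries had the highest shares of TPM on mitochondrially encoded genes of their cell type, 19.9% in monocytes and 3.0% in neutrophils. Among neutrophil libraries TN2 tag_1341 had the most monocyte marker TPM, 801 against 333 to 415. In such bulk samples fewer cells of a type and less RNA per cell cannot be told apart.

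The beta 2 chain dominated in both cell types. Itgb2, the shared partner of the 3 beta 2 alpha chains, averaged 613 ± 239 TPM in monocytes and 796 ± 82.8 TPM in neutrophils (SD, n = 5 each), and was above every other chain in all 10 libraries. In monocytes the mean levels then ran in the order Itgal, Itgb7, Itgam, Itgb1, Itga4, Itgax and Itgav, and in neutrophils Itgam, Itgal, Itgax, Itga4, Itgb7, Itgb1 and Itgav, with Itgam summed over its GENCODE transcripts. With the transcripts that the authors grouped under Itgam, described below, it averaged 130.5 TPM in monocytes and stood above Itgal (128 TPM). In monocytes no neighbours below Itgb2 were separated by their ranges over libraries, whereas in neutrophils Itgal stood clear of Itgax and Itgb1 stood clear of Itgav.

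**Figure D1:**
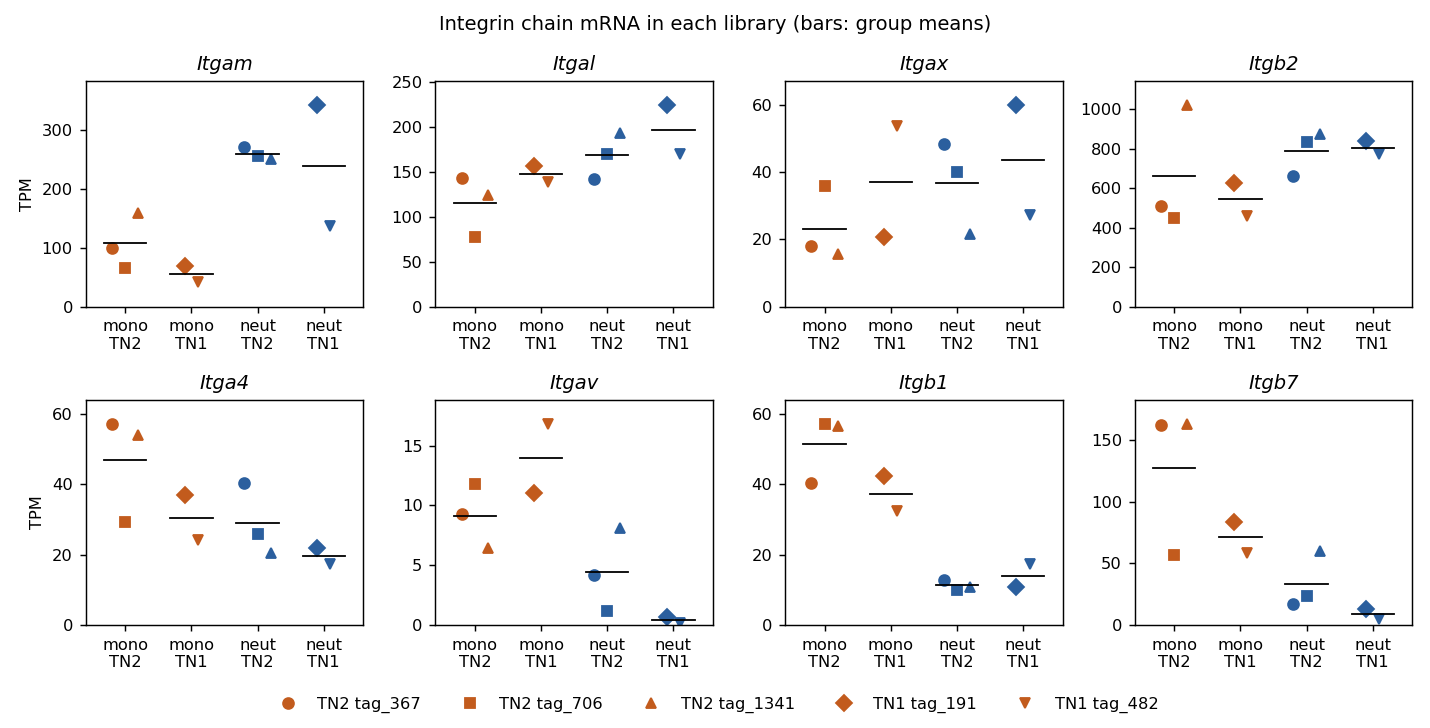
TPM (y axis, from 0, a separate scale per panel) of each chain in the 10 libraries, with monocytes in orange, neutrophils in blue, 1 marker shape per tag and a bar at each group mean. Itgb1 is the chain whose monocyte and neutrophil points do not overlap, at 32.4 to 57.3 and 10.1 to 17.2 TPM.

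In monocytes, Itgb1 and Itgb7 were higher and Itgam, Itgal and Itgb2 were lower than in neutrophils, so 2 of the 8 chains were higher, 3 were lower and 3 did not pass (edgeR, adjusted p under 0.05, mean over TN1 and TN2). Over all 13384 genes 27.9% were called, 15.5% higher and 12.4% lower, and 40.9% had an unadjusted p under 0.05. The median log2 difference of the 8 chains was -0.51 and that of all genes 0.46, and the differences below are on the log2 scale of counts per library size after TMM scaling (CPM), monocytes minus neutrophils. Markers of some other myeloid cells moved with this contrast: 5 of 7 tested dendritic cell markers and 6 of 8 interstitial macrophage markers were higher in monocytes (edgeR). Summed TPM of dendritic cell markers was 139.5 to 888 in monocytes and 1.27 to 5.67 in neutrophils. For interstitial macrophages it was 451 to 2346 in monocytes and 31.9 to 118 in neutrophils. Of 6 tested alveolar macrophage markers 0 were higher and 1 was lower in monocytes (edgeR). Their summed TPM was 1999 to 11163 in TN2 monocytes, 104 to 584 in TN1 monocytes and 169 to 1163 in neutrophils. None of the tested mast cell, basophil or eosinophil markers was called. The part of these other cells in the chain differences, between cell types or tumours, was not tested.

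Itgam, the alpha chain of Mac-1 and the CD11b antigen (chromosome 7, 128062640 to 128118491), had the largest of these differences. It was at 99.6, 65.9 and 159 TPM in TN2 monocytes and 69.4 and 41.7 TPM in TN1 monocytes, against 272, 256 and 251 TPM in TN2 neutrophils and 343 and 137 TPM in TN1 neutrophils. Every monocyte library but TN2 tag_1341 lay below every neutrophil library, and TN1 tag_482 was the lowest of the neutrophils. Itgam fell by 2.24 ± 0.33 (SE) on the log2 scale in monocytes (edgeR, adjusted p = 0.00099), and in CPM the cell types did not overlap, at 158 to 431 in monocytes and 638 to 1371 in neutrophils. Non-overlap in CPM in either direction was seen for 28.5% of all genes, 16% higher and 12.6% lower.

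The Itgam level depends on which transcripts are counted. In the GENCODE annotation an overlapping gene, Gm49368, shares most Itgam sequence, and 68.1% of 31-base words of Itgam transcripts occur in another gene. The authors' deposited group means of Itgam were matched only when both Gm49368 transcripts and 1 transcript outside this annotation were added, which brought the largest difference of a group mean down to 4.8e-10 on the log2 scale, against 0.73 without them. With these 3 transcripts Itgam averaged 130.5 ± 58.0 TPM in monocytes and 344 ± 79.9 TPM in neutrophils (SD, n = 5 each), and it fell by 2.07 on the log2 scale in monocytes (edgeR, adjusted p = 0.00099). The added share was 28.7% to 41.4% of this sum in monocytes and 23.1% to 39.4% in neutrophils.

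Itgal, the alpha chain of LFA-1 (chromosome 7, 127296260 to 127335138), was at 143, 77.0 and 124 TPM in TN2 monocytes and 157 and 139 TPM in TN1 monocytes, against 142, 170.3 and 194 TPM in TN2 neutrophils and 224 and 169.9 TPM in TN1 neutrophils. Itgb2 (chromosome 10, 77530252 to 77565708) was at 509.8, 451 and 1021 TPM in TN2 monocytes and 628 and 458 TPM in TN1 monocytes, against 662, 832 and 873.5 TPM in TN2 neutrophils and 837 and 774 TPM in TN1 neutrophils. In TPM the cell types overlapped for both genes, and the highest Itgb2 value of all was that of monocyte library TN2 tag_1341. On TMM-scaled counts Itgal fell by 1.27 ± 0.27 (adjusted p = 0.00739) and Itgb2 fell by 1.20 ± 0.30 (adjusted p = 0.0153) in monocytes (edgeR). The TN2 tag_706 monocytes, with their markers of other cell types, had the lowest Itgal and Itgb2 among the 10 libraries.

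The calls of Itgal and Itgb2 were not made without TMM or on log2(TPM + 1). TMM factors were 1.17 to 1.53 in monocyte and 0.625 to 0.890 in neutrophil libraries. Without TMM, with counts scaled to library size alone, Itgal was at -0.42 (edgeR, adjusted p = 0.146) and Itgb2 at -0.36 (adjusted p = 0.274), and on log2(TPM + 1) they were at -0.49 (limma-trend, adjusted p = 0.0972) and -0.47 (adjusted p = 0.153). Itgam, Itgb1 and Itgb7 passed in the same direction on all 3 scales. The median of all genes was 0.46 with TMM, 1.30 without it and 0.62 on log2(TPM + 1), and relative to that median Itgal and Itgb2 were at -1.73 and -1.67 with TMM, at -1.71 and -1.65 without it and at -1.11 and -1.09 on log2(TPM + 1). Of all calls 55.5% were higher in monocytes with TMM, 81.5% without it and 79.1% on log2(TPM + 1).

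**Figure D2:**
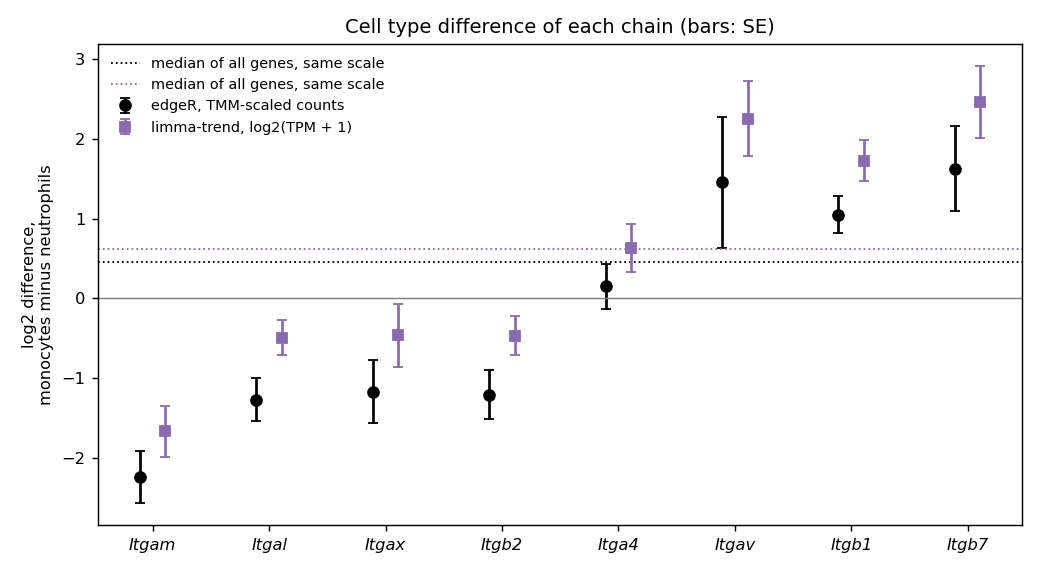
Log2 difference of each chain, monocytes minus neutrophils (y axis), as the edgeR estimate on TMM-scaled counts (black circles) and the limma-trend estimate on log2(TPM + 1) (purple squares), with SE bars and the median of all genes on each scale as a dotted line. Itgam lies below 0 at -2.24 and -1.67, Itgb1 and Itgb7 lie above it on both scales, and Itgal, Itgax and Itgb2 lie closer to 0 on the TPM scale.

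Itgb1, the beta chain of VLA-4 and of the fibronectin and collagen receptors (chromosome 8, 128685654 to 128733200), was at 40.5, 57.3 and 56.6 TPM in TN2 monocytes and 42.4 and 32.4 TPM in TN1 monocytes, against 12.9, 10.1 and 10.9 TPM in TN2 neutrophils and 10.9 and 17.2 TPM in TN1 neutrophils. All monocyte libraries lay above all neutrophil libraries, in TPM and in CPM. Itgb1 rose by 1.05 ± 0.23 on the log2 scale in monocytes (edgeR, adjusted p = 0.00865) and by 1.73 on log2(TPM + 1) (limma-trend, adjusted p = 0.000343).

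Itgb7, the beta chain that pairs with Itga4 or Itgae (chromosome 15, 102215995 to 102231944), was at 163, 56.6 and 164 TPM in TN2 monocytes and 84.0 and 58.4 TPM in TN1 monocytes, against 17.2, 23.8 and 59.9 TPM in TN2 neutrophils and 13.3 and 4.59 TPM in TN1 neutrophils. In TPM the cell types overlapped by 1 library, neutrophil library TN2 tag_1341, which was above monocyte libraries TN2 tag_706 and TN1 tag_482. In CPM the overlap was wider. Neutrophil library TN2 tag_1341, at 206, was above monocyte libraries TN2 tag_706 (72.8), TN1 tag_191 (142) and TN1 tag_482 (123). Neutrophil library TN2 tag_706, at 73.9 CPM, was also above monocyte library TN2 tag_706. Itgb7 rose by 1.62 ± 0.53 on the log2 scale in monocytes (edgeR, adjusted p = 0.0464). This call lay close to the threshold: with 1 library left out at a time it was lost in 7 of 10 fits, with adjusted p of 0.0772 to 0.143 and differences of 1.34 to 1.69. Those 7 left out monocyte libraries TN2 tag_367, TN2 tag_1341, TN1 tag_191 or TN1 tag_482, or neutrophil libraries TN2 tag_367, TN2 tag_706 or TN1 tag_482.

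Itgax, the CD11c alpha chain (chromosome 7, 128129547 to 128150657), missed the threshold, at -1.17 ± 0.39 (edgeR, adjusted p = 0.0502). It was at 18.0, 35.8 and 15.5 TPM in TN2 monocytes and 20.7 and 53.6 TPM in TN1 monocytes, against 48.2, 39.9 and 21.6 TPM in TN2 neutrophils and 59.8 and 27.0 TPM in TN1 neutrophils. The highest monocyte value, in TN1 tag_482, came with the highest summed TPM of 8 dendritic cell markers, 888 against 139.5 to 264 in the other monocyte libraries, and the part of that in the Itgax level was not tested. Without monocyte library TN1 tag_482 Itgax was at -1.74 and passed (edgeR, adjusted p = 0.0145). It also passed without monocyte library TN2 tag_706 (-1.35, adjusted p = 0.0327), neutrophil library TN2 tag_1341 (-1.27, adjusted p = 0.0499) or neutrophil library TN1 tag_482 (-1.39, adjusted p = 0.0365). In the other 6 fits with 1 library left out it did not pass, at -1.21 to -0.83 with adjusted p of 0.0702 to 0.154, nor did it on log2(TPM + 1), at -0.46 (limma-trend, adjusted p = 0.381). Itgad, the neighbouring chain with which Itgax shares 10.7% of its 31-base words, was at 2.60 ± 1.05 TPM in monocytes and 5.26 ± 1.48 TPM in neutrophils (SD, n = 5 each).

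Itga4, the alpha chain of VLA-4 (chromosome 2, 79255426 to 79333123), was at 57.3, 29.4 and 54.0 TPM in TN2 monocytes and 36.9 and 24.2 TPM in TN1 monocytes, against 40.4, 26.0 and 20.5 TPM in TN2 neutrophils and 21.8 and 17.3 TPM in TN1 neutrophils. The ranges overlapped, and the difference of 0.15 ± 0.28 did not pass (edgeR, adjusted p = 0.714), though without TMM it was 0.97 (adjusted p = 0.0283). Itgav, the vitronectin receptor alpha chain (chromosome 2, 83724397 to 83806916), was the least abundant chain, at 11.1 ± 3.83 TPM in monocytes and 2.84 ± 3.33 TPM in neutrophils (SD, n = 5 each). Its difference of 1.46 ± 0.82 did not pass (edgeR, adjusted p = 0.209) but was 2.25 on log2(TPM + 1) (limma-trend, adjusted p = 0.0031), and it was 3.48 without neutrophil library TN1 tag_191 (edgeR, adjusted p = 0.0139). In the other 9 fits with 1 library left out it did not pass, with adjusted p of 0.159 to 0.609 and a lowest difference of 0.68, without monocyte library TN1 tag_191. Few reads lie behind it, 33 to 272 estimated counts in monocyte and 1 to 107 in neutrophil libraries, and short annotated transcripts carried much of the TPM: restricted to transcripts of at least 1000 bases it was at 3.73, 3.90 and 6.42 TPM in TN2 monocytes and 4.69 and 0.0678 TPM in TN1 monocytes.

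The libraries in doubt bore on these counts. Without both TN1 tag_482 libraries 3 chains passed, Itgam, Itgb1 and Itgax, and Itgal (-1.39, adjusted p = 0.0566), Itgb2 (-1.17, adjusted p = 0.121) and Itgb7 (1.41, adjusted p = 0.190) did not (edgeR). Leaving out monocyte library TN1 tag_482 alone also ended the call of Itgb2 (-1.16, adjusted p = 0.0722). Without monocyte library TN2 tag_706 6 chains passed, Itgax among them, where 25.1% of all genes were called (edgeR). Within TN2 3 chains passed, Itgam, Itgal and Itgb1, where 13.1% of all genes were called (edgeR). Within TN1 Itgam alone passed, where 12.5% of all genes were called (edgeR). The Itgam difference was -2.03 ± 0.41 in TN2 and -2.45 ± 0.51 in TN1. In the full fit 27.9% of all genes were called, and the share also fell in the fits without TN1 tag_482 libraries, so fewer calls were not particular to the chains.

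Partner chains can be compared on the TPM scale within a library, where library scaling cancels in shares. For ratios of 1 chain over another, 1 was first added to each TPM. In those ratios scaling cancels only in part, and low TPM values are raised most in proportion. Itgb2 made up 80.1% ± 5.0 of the summed TPM of Itgb1, Itgb2 and Itgb7 in monocytes and 95.7% ± 1.93 in neutrophils (SD, n = 5 each), with ranges of 71.5% to 83.4% and 92.5% to 97.3% that do not overlap. The log2 ratio of Itgb1 over Itgb2 was -3.67 ± 0.44 in monocytes and -5.91 ± 0.39 in neutrophils (SD, n = 5 each), a difference of 2.24 (exact permutation test, two-sided, p = 0.00794, adjusted over 4 ratios p = 0.0317, the smallest p that 5 against 5 libraries allow being 0.00794). In TN2 the monocyte ratio of Itgb1 to Itgb2 was 0.0813, 0.129 and 0.0563 and the neutrophil ratio 0.0209, 0.0133 and 0.0136. In TN1 the monocyte ratio was 0.0690 and 0.0729 and the neutrophil ratio 0.0142 and 0.0235. Every monocyte library was thus above every neutrophil library.

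Among the beta 2 alpha chains Itgam took a smaller mean share in monocytes, and which chain led depended on the Itgam transcripts counted. With GENCODE transcripts Itgam made up 34.8% ± 13.1 of the summed TPM of Itgam, Itgal and Itgax in monocytes and 52.6% ± 6.81 in neutrophils, Itgal 52.5% ± 9.75 in monocytes and 39.1% ± 7.64 in neutrophils, and Itgax 12.7% ± 8.16 in monocytes and 8.25% ± 2.21 in neutrophils (SD, n = 5 each). Itgal led in 4 of 5 monocyte libraries, TN2 tag_1341 being the exception, and Itgam led in 4 of 5 neutrophil libraries, TN1 tag_482 being the exception. With the authors' grouping Itgam was above Itgal in 3 of 5 monocyte libraries, those of TN2, and in 5 of 5 neutrophil libraries. The log2 ratio of Itgam over Itgal was lower in monocytes by 1.09 (exact permutation test, two-sided, p = 0.0317), but it did not pass after adjustment over the 4 ratios (p = 0.0635). Neither did Itgax over Itgam (1.10, adjusted p = 0.180) or Itgb7 over Itgb1 (0.56, adjusted p = 0.516) in the same exact permutation test. With that grouping the difference of Itgam over Itgal was -0.95 (exact permutation test, adjusted p = 0.0635).

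**Figure D3:**
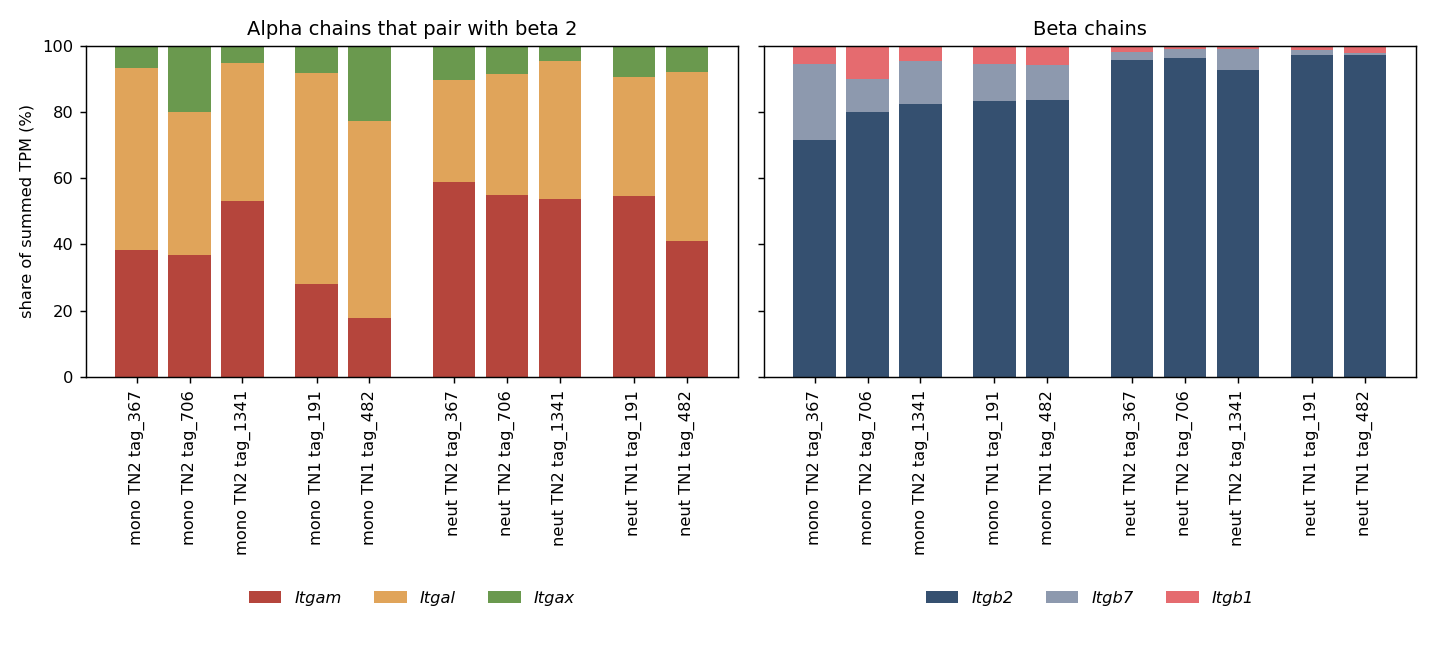
Share of summed TPM (y axis, percent) of Itgam, Itgal and Itgax (left) and of Itgb2, Itgb7 and Itgb1 (right) in each library, monocytes left of neutrophils and TN2 left of TN1. Itgb2 takes 71.5% to 83.4% of the summed TPM of Itgb2, Itgb7 and Itgb1 in monocytes and 92.5% to 97.3% in neutrophils.

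The alpha chains for beta 2 summed to less mRNA than Itgb2 in every library, 0.421 ± 0.092 of its TPM in monocytes and 0.594 ± 0.129 in neutrophils (SD, n = 5 each). Itga4 stood at 0.269 ± 0.018 of the summed TPM of its partners Itgb1 and Itgb7 in monocytes, within 0.245 to 0.292 in all 5 libraries. In neutrophils this ratio was 0.819 ± 0.376 and ran from 0.290 to 1.34, the lowest value being that of TN2 tag_1341. By this ratio neutrophil library TN2 tag_1341 lay within the monocyte range. Its Itgb7, at 59.9 TPM, was the highest of the neutrophil libraries, while its Itgb1, at 10.9 TPM, was within their 10.1 to 17.2 TPM. It also held the most monocyte marker TPM of the neutrophil libraries, and the part of that in the ratio was not tested.

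Between tumours, no chain passed in either cell type. In monocytes, TN2 minus TN1, 0 of 8 chains and 0 of 13384 genes were called (edgeR, percent called 0, with 379 genes, 2.83%, at unadjusted p under 0.05 and 22 genes called by DESeq2). In neutrophils the same comparison called 0 of 8 chains and 0 genes (edgeR, percent called 0, with 625 genes, 4.67%, at unadjusted p under 0.05 and 87 called by DESeq2). By DESeq2 0 chains were called as well. A permutation of 3 against 2 libraries cannot give p under 0.05, so the tumours rest on the fit across all genes.

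In monocytes, Itgal had its 3 TN2 libraries below both TN1 libraries in CPM, at 209 to 446 against 545 to 587, where 7.73% of all genes did not overlap in that direction and 20.1% in either. Its log2 difference was -0.71 ± 0.38 (edgeR, adjusted p = 1), and in TPM the groups overlapped. Itgax was at -1.12 ± 0.54 (edgeR, adjusted p = 1) and was -0.22 without the TN1 tag_482 libraries. Itgam was at 0.64 ± 0.45, Itgb7 at 0.55 ± 0.74 and Itgav at 0.58 ± 1.15. Itga4 (0.25 ± 0.40), Itgb1 (0.13 ± 0.33) and Itgb2 (-0.00 ± 0.42) differed by less than their SE.

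In neutrophils, Itgb7 and Itgav were above both TN1 libraries in all 3 TN2 libraries, in CPM and TPM, where 11.8% of all genes did not overlap in that direction in CPM and 5.91% in the other. For Itgb7 the CPM values were 43.6, 73.9 and 206 in TN2 against 37.5 and 13.2 in TN1, and the log2 difference was 2.09 ± 0.79 (edgeR, adjusted p = 0.943). The highest of these libraries, TN2 tag_1341, had 18.4 TPM of Ccr2 and 226 TPM of Ly6c2, markers of monocytes, against 0.905 to 5.19 and 19.0 to 34.0 TPM in the other neutrophil libraries, and their part in the Itgb7 level was not tested. The Itgb7 difference was 1.21 without this library, 3.03 without TN1 tag_191 and 1.52 without TN1 tag_482 (edgeR), and it passed in none of these fits. For Itgav, counts were 107, 58 and 50 in TN2 against 39 and 1 in TN1, and the log2 difference was 1.90 ± 1.22 (edgeR, adjusted p = 0.943). It was 5.96 without TN1 tag_191 (adjusted p = 0.0682) and 0.95 without TN1 tag_482 (adjusted p = 1), so its size rests on which TN1 library is kept. The other 6 chains lay between -0.29 (Itgb1) and 0.25 (Itga4), each below its SE.

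**Figure D4:**
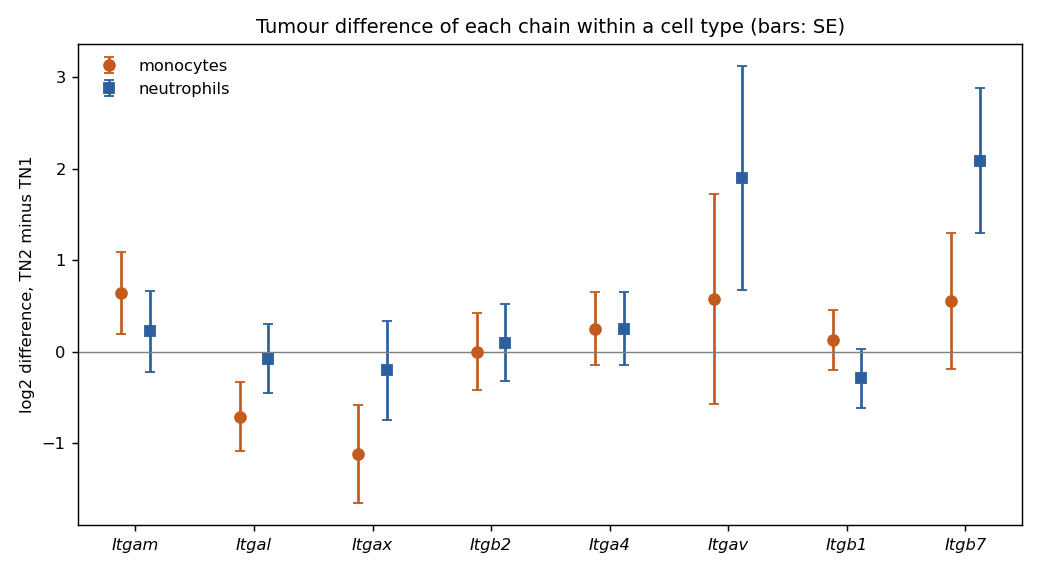
Log2 difference, TN2 minus TN1 (y axis, edgeR, bars SE), of each chain in monocytes (orange circles) and neutrophils (blue squares). No chain passed in either cell type, and the largest estimates, of Itgb7 at 2.09 and Itgav at 1.90 in neutrophils, have SEs of 0.79 and 1.22.

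The tumour effects in the 2 cell types were compared in the same fit. The difference of the TN2 minus TN1 effects, monocytes minus neutrophils, was -1.53 ± 1.04 for Itgb7, -1.33 ± 1.61 for Itgav, -0.91 ± 0.77 for Itgax and -0.63 ± 0.54 for Itgal, and 0 of 8 chains and 0 genes were called (edgeR, percent called 0, with 472 genes, 3.53%, at unadjusted p under 0.05 and 30 called by DESeq2). The authors' deposited tables gave log2 fold changes, TN2 over TN1, of 1.75 for Itgb7 (p = 0.0678) and 1.76 for Itgav (p = 0.0609) in neutrophils and of -0.41 for Itgal (p = 0.290) in monocytes. In the authors' deposited tables the adjusted p of all 8 chains was 1 in both cell types.

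Genes around the integrins were read from 4 lists. Between monocytes and neutrophils 27.9% of all genes were called, 15.5% higher and 12.4% lower in monocytes (edgeR). The share called was 35.8% without TMM (edgeR) and 42.8% on log2(TPM + 1) (limma-trend). Of 20 genes for signalling and linkage to actin, 11 were lower and 0 higher in monocytes (edgeR), with a median log2 difference of -1.24 against 0.46 for all genes. Zyx, which encodes the focal adhesion protein zyxin, was at 201 ± 48.8 TPM in monocytes and 943 ± 176 TPM in neutrophils and fell by 3.04 ± 0.22 (adjusted p = 5.18e-05). Ptk2b, encoding the kinase Pyk2, fell by 1.94 ± 0.21, and Syk, the kinase that acts downstream of beta 2 integrins, fell by 1.58 ± 0.21. Lyn, a Src family kinase, was the list's second most abundant gene, at 289.9 ± 86.0 TPM in monocytes and 299.8 ± 36.7 TPM in neutrophils. It fell by 0.84 ± 0.26 in monocytes (edgeR, adjusted p = 0.038), but was at -0.13 on log2(TPM + 1) (limma-trend, adjusted p = 0.700). Without TMM this list gave 6 lower and 3 higher, on log2(TPM + 1) 8 and 2, and without both TN1 tag_482 libraries 7 and 0.

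Of 20 integrin activation genes 19 were tested, and 6 were lower and 1 higher in monocytes (edgeR), with a median of -0.35. Of all genes 12.4% were lower and 15.5% higher. Fermt3, which encodes kindlin-3, the kindlin of blood cells, rose by 1.25 ± 0.27 in monocytes, at 166 ± 42.4 TPM in monocytes and 42.9 ± 13.6 TPM in neutrophils (edgeR, adjusted p = 0.00702). Rap1b, the small GTPase that recruits talin, fell by 1.54 ± 0.21, the adaptor gene Skap2 fell by 1.31 ± 0.23, and Rassf5, whose product RAPL links Rap1 to LFA-1, fell by 1.79 ± 0.32. The most abundant genes, Cytip (739 ± 177 TPM in monocytes and 669.6 ± 119 TPM in neutrophils), which encodes a cytohesin-binding protein, and the filamin gene Flna (277 ± 101 TPM in monocytes and 259 ± 78.6 TPM in neutrophils), did not pass. Without TMM the list gave 2 lower and 4 higher, and on log2(TPM + 1) 3 lower and 4 higher, on scales where 81.5% and 79.1% of all calls were higher, against 55.5% with TMM. Without both TN1 tag_482 libraries it gave 4 lower and 0 higher.

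Of 18 other integrin chains 15 were tested and 1 was higher and 1 lower in monocytes (edgeR), with a median of 0.97. Itga9, an alpha partner of Itgb1, rose by 4.50 ± 1.28, at 3.81 ± 2.92 TPM in monocytes and 0.245 ± 0.323 TPM in neutrophils (adjusted p = 0.0265). Itgb3, the beta chain of the platelet fibrinogen receptor and a partner of Itgav, fell by 2.60 ± 0.74, at 1.25 ± 1.18 TPM in monocytes and 3.12 ± 1.68 TPM in neutrophils (adjusted p = 0.026), but on log2(TPM + 1) it was at -0.94 and did not pass (limma-trend, adjusted p = 0.128). The most abundant were Itga5, the fibronectin receptor alpha chain, at 127 ± 37.5 TPM in monocytes and 48.3 ± 23.3 TPM in neutrophils (0.66 ± 0.45, adjusted p = 0.295), and Itgb5, a partner of Itgav, at 23.7 ± 8.86 TPM in monocytes and 5.24 ± 7.65 TPM in neutrophils (2.20 ± 0.78, adjusted p = 0.0597). On log2(TPM + 1) Itga5 and Itgb5 were 1.62 and 2.35 higher in monocytes (limma-trend, adjusted p = 0.0116 and 0.00857), and the list gave 4 higher and 0 lower there, as it did without TMM. Itgb2l, a gene similar to Itgb2 that was added after its values were seen, had 0 counts in all 5 monocyte libraries and 6 to 275 in the neutrophil libraries.

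Of 18 ligand genes 12 were tested and 1 was higher and 1 lower in monocytes (edgeR), with a median of -0.02. Of all genes 27.9% were called. Fn1, encoding fibronectin, a ligand of VLA-4 and of the Itga5 receptor, rose by 4.52 ± 0.78, at 144 ± 77.3 TPM in monocytes and 5.34 ± 7.48 TPM in neutrophils (adjusted p = 0.00225). Spp1, encoding osteopontin, fell by 3.25 ± 0.68, at 87.0 ± 77.9 TPM in monocytes and 416 ± 324 TPM in neutrophils (adjusted p = 0.00648). The most abundant ligands were Cd47 (519.7 ± 68.1 TPM in monocytes and 285 ± 40.5 TPM in neutrophils), an integrin-associated surface protein, and Icam1 (280.0 ± 197 TPM in monocytes and 269 ± 60.0 TPM in neutrophils), the ligand of LFA-1. Neither passed on TMM-scaled counts (edgeR). On log2(TPM + 1) Cd47 was 0.87 higher in monocytes (limma-trend, adjusted p = 0.00153) and Icam1 was at -0.14 (adjusted p = 0.787). Without TMM, and on log2(TPM + 1), 4 ligand genes were higher and 1 lower. In neither cell type was a gene of the 4 lists called between tumours (edgeR, 66 genes tested).

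**Figure D5:**
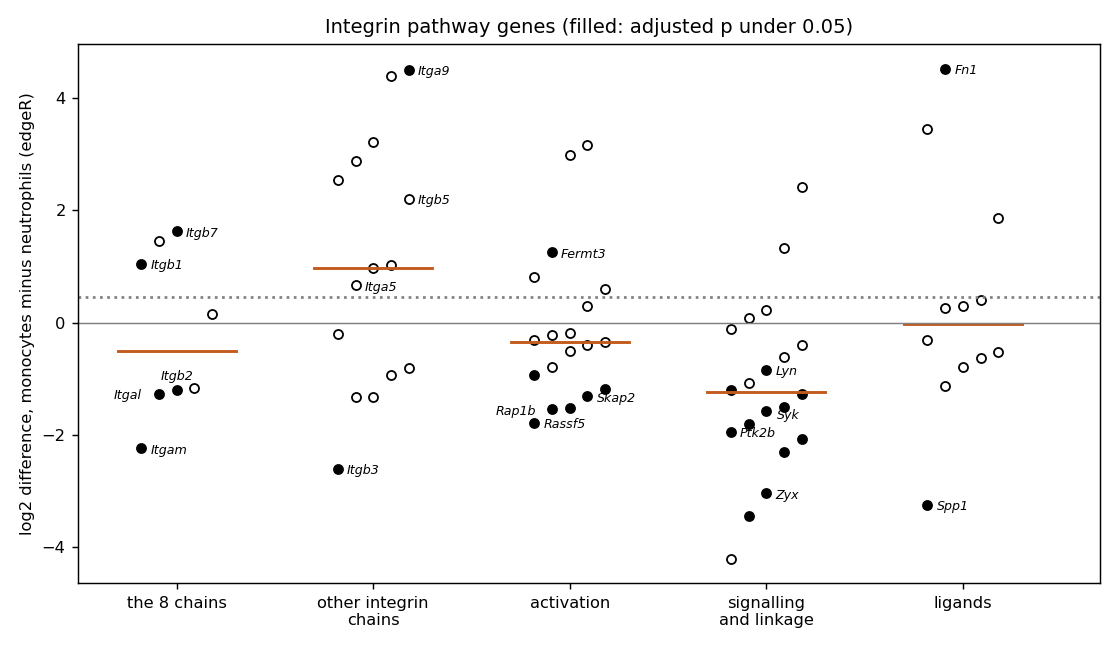
Log2 difference, monocytes minus neutrophils (y axis, edgeR), of every tested gene of the 8 chains and of the 4 lists, filled where the adjusted p was under 0.05, with list medians in orange and the median of all genes as a dotted line. Of the signalling and linkage genes 11 lie below 0 as filled points, and the list medians run from -1.24 to 0.97.

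Across the 10 libraries, Itgam, Itgal and Itgb2 varied together and Itgb1 varied opposite to them. The other chains followed less closely or not at all. Pearson correlations of log2(CPM + 1) are given as a description over 10 libraries that share the cell type contrast and the scaling. They were 0.92 between Itgam and Itgb2, 0.89 between Itgal and Itgb2 and 0.82 between Itgam and Itgal. Itgb1 stood at -0.89 with Itgam, -0.82 with Itgal and -0.74 with Itgb2. Itgax stood at 0.47 with Itgb2, 0.56 with Itgam and 0.65 with Itgal. Itgb7 stood at 0.46 with Itgb1 and -0.29 with Itgb2. Itga4 correlated with its partners at 0.03 for Itgb1 and 0.54 for Itgb7. Of the 6653 genes with a mean of at least 10 CPM, those most like Itgam were Orai2 (0.99) and Clec4e (0.98), those most like Itgb2 Capza1 and Tlr13 (0.98 and 0.97), those most like Itgal Lrrfip1 and Tpm3-rs7 (0.98 and 0.97), and those most like Itgax Inpp5a and Fbxo11 (0.97 and 0.95). Itgb1 was most like Capn2 and Cct6a (both 0.97), Itgb7 most like Cmtm7 and Exosc3 (both 0.96), and Itgav most like Zfp830 and Fbxo6 (both 0.97). For Itga4 the nearest genes, Acot7 and Rnpep, reached 0.85 and 0.80.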

How the data were processed

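Neutrophils and CCR2+ monocytes had been sorted by FACS from lungs of tumour-bearing NOD/scid mice, and their RNA was amplified with Smart-seq2 and sequenced on an Illumina HiSeq, per the labels. The deposited transcript tables hold estimated counts and TPM made by the authors with kallisto 0.42.3, per the submitters' processing notes. Values are not UMI-based, so amplification duplicates are counted. The authors' deposited comparison tables hold log2 group means, fold changes as log2 differences and signed linear ratios, and a raw and an adjusted p-value per gene, per the file headers, and the test behind them is not given in the sources used here.

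Gene values are sums over the transcripts that GENCODE (mouse release 21) assigns to a gene (81839 of 85276 matched, and unmatched transcripts held 1.94% to 3.59% of counts). Estimated counts were rounded and fitted with edgeR 4.0.16 (filterByExpr with a minimum count of 10, TMM, quasi-likelihood, 4 groups in 1 fit, Benjamini-Hochberg over 13384 genes, threshold 0.05). Library totals were 7239218 to 11311370, and the biological coefficient of variation of 0.887 with 6 residual degrees of freedom limits the precision. Ratios of 1 chain over another, with 1 added to each TPM, used a two-sided exact permutation test. The script was tested on simulated data. Alternatives used limma 3.58.1 (log2 of TPM plus 1 or 0.1) and DESeq2 1.42.0.

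The chains and the gene lists were chosen with earlier results of these data known. Named genes are the 8 chains, per list up to 3 called genes per direction with the smallest p and the 2 with the highest mean TPM, and per chain the 2 genes most correlated. After the data were seen, 6 alternatives were added: the authors' transcript grouping of Itgam, counts without TMM, transcripts of at least 1000 bases, fits and ratios without both TN1 tag_482 libraries, and counts per gene list.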

Additional observations from a re-analysis of the deposited data

How the results depend on the processing

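Over 23 alternatives Itgam was called lower in monocytes in 23, Itgb1 higher in 22, Itgal lower in 18, Itgb2 lower in 16 and Itgb7 higher in 12. The number of chains called, 5, became 1 within TN1, 3 within TN2 and 3 without both TN1 tag_482 libraries, and the genes called, 3733, became 1676, 1750 and, on log2(TPM + 1), 5730. Itga4, monocytes minus neutrophils, ranged from -0.052 to 0.31 with 1 library left out. The causes of these changes were not tested, and within 1 tumour fewer libraries enter the contrast. Low counts limit Itgav most.

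Between tumours 0 genes passed, but in neutrophils 2 did without the count filter, 1 without TMM, 1 on log2(TPM + 1), 3 on log2(TPM + 0.1) and 87 by DESeq2. With 1 library left out the neutrophil count ran from 0 to 552, the highest without neutrophil library TN1 tag_191. In monocytes DESeq2 called 22, and the range was 0 to 141, the highest without monocyte library TN1 tag_191. For the difference of the effects 1 gene passed without the filter and 30 by DESeq2, and the range was 0 to 406, with 406 without neutrophil library TN1 tag_191 and 107 without monocyte library TN1 tag_191.

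Several small tumour differences changed sign. In monocytes, without both TN1 tag_482 libraries, Itga4 was -0.048, Itgb1 -0.042 and Itgav -0.21, and Itgav was -0.57 and -0.61 on log2(TPM + 1) and log2(TPM + 0.1). Monocyte Itgb2 was 0.014 without the filter, 0.040 with protein-coding transcripts, 0.14 without TMM and 0.20 on both TPM scales. In neutrophils Itgb2 was -0.032 with transcripts of at least 1000 bases, -0.040 without TMM, -0.039 on both TPM scales, -0.0043 with neutrophils alone in the fit and -0.048 without both TN1 tag_482 libraries, where Itgam was -0.32. The difference of the effects for Itgb2 was 0.18 without TMM and 0.24 on both TPM scales, and without both TN1 tag_482 libraries it was -0.16 for Itga4, 0.51 for Itgax and -0.040 for Itgb1.

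With 1 library left out, ranges that crossed 0 were, in monocytes, -0.15 to 0.57 for Itga4, -0.58 to 0.26 for Itgb2, -0.099 to 0.15 for Itgb1 and -0.21 to 2.01 for Itgav. In neutrophils they were -0.11 to 0.31 for Itgb2, -0.31 to 0.14 for Itgal, -0.66 to 0.46 for Itgax, -0.23 to 0.88 for Itgam and -0.59 to 0.089 for Itgb1. For the difference of the effects they were -0.28 to 0.43 for Itga4, -0.55 to 0.29 for Itgb2, -5.38 to 0.19 for Itgav, -1.58 to 0.081 for Itgax and -0.23 to 0.87 for Itgam. None of these passed in the full fit.

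Among the ratios, Itgb1 over Itgb2 differed by 2.39 without both TN1 tag_482 libraries (exact permutation test, adjusted p = 0.0571). Every monocyte library kept was above every neutrophil library kept, so the unadjusted p was the smallest that this smaller test allows. With 1 library left out Itgam over Itgal ranged from -1.34 to -0.83, passing without monocyte library TN2 tag_1341 or neutrophil library TN1 tag_482, and Itgax over Itgam from 0.62 to 1.53, passing without monocyte library TN2 tag_1341. Itgb7 over Itgb1 was -0.15 in TN2 alone.

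Tags recur in both cell types, and the labels do not say whether they pair the libraries. Correlations of same-tag deviations from the group means were -0.076 to 0.377, and those between different tags -0.412 to 0.228. The highest, 0.377 and 0.352, were those of tag_706 and tag_1341. With 2 or 3 libraries per group these values cannot settle pairing, and the main fit used no tag block. With the tag as a replicate block 3335 genes and 5 chains were called, the difference of the effects for Itga4 was -0.062, and Itgb1 over Itgb2, at 2.24, had an adjusted p of 0.0833 in an exact sign-flip permutation test, which for 5 tags cannot give a p below 0.0625 and so could not pass.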
